A study of Mus musculus with 36 samples.

Results

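Mammalian mitochondria encode their own tRNAs, and every enzyme that cuts, finishes and modifies those tRNAs is encoded in the nucleus and imported. The transcripts of 10 such enzymes were followed through male germ cells, early embryos and tissues of the next generation. They were taken as a list of symbols, and all 10 were found by gene identifier in each of the 6 count tables, among 55487 genes in the longest table. A further 19 nuclear genes of mt-tRNA processing and modification were counted beside them.

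The labels give the mice as C57BL/6 wildtype throughout, and the study's methods name the C57BL/6N substrain. Males aged 6 weeks received, during 2 weeks, a diet whose kcal were 60% fat (HFD) or 10% fat (LFD), and cauda spermatozoa were isolated from them by swim-up. Morulae came from in vitro fertilization of wild-type oocytes with sperm of such males and were picked after 72 h of culture. Round spermatids, the haploid cells before elongation, were enriched on a density gradient from testes of males on both diets. Liver, gastrocnemius and epididymal white adipose tissue (eWAT) came from chow-fed F1 sons of HFD-fed fathers, of which some were glucose tolerant (HFDt) and others intolerant (HFDi). Sperm and morula had 3 libraries per diet. The other 4 tables had 6 libraries each and were treated as 1 group each, because their column names do not give the diet or the tolerance of a library.

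The primary mitochondrial transcript is punctuated by tRNAs. RNase P, made of PRORP with TRMT10C and HSD17B10, cuts at the 5′ end of each tRNA, ELAC2 cuts at the 3′ end, and TRNT1 adds the terminal CCA. TRMT10C with HSD17B10 also methylates purine 9, and TRMT5 methylates the base next to the anticodon. MTO1 and GTPBP3 together place the taurinomethyl group on the wobble uridine, to which TRMU adds sulphur. PUS1 makes pseudouridine, and NSUN3 methylates the wobble cytidine of mt-tRNA-Met so that ALKBH1 can oxidize it to formylcytidine.

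The genes lie on 8 autosomes and the X chromosome. In the coordinates of the files (GRCm38), Elac2 spans chr11:64979038-65002069 on the plus strand, Trmt10c chr16:56032609-56037819 on the minus strand, Hsd17b10 chrX:152001845-152004442 on the plus strand, Trnt1 chr6:106769120-106782474 on the plus strand and Trmt5 chr12:73280011-73286710 on the minus strand. Mto1 spans chr9:78448208-78475348 on the plus strand, Gtpbp3 chr8:71488103-71499583 on the plus strand, Trmu chr15:85879312-85897394 on the plus strand, Pus1 chr5:110773667-110780659 on the minus strand and Nsun3 chr16:62732444-62786818 on the minus strand. Hsd17b10 was the only X-linked member, and Trmt10c and Nsun3 were both on chromosome 16.

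The RNase P partners Hsd17b10 and Trmt10c are shown by the 250 bases before their start sites (RefSeq, GRCm38.p6), since the ratio of their levels is followed below. Nsun3 is shown because it had the lowest p between diets in sperm of the members that could be tested there. Capitals mark matches, on either strand, to a CCAAT box (CCAAT) or to the core of a GABP site (CCGGAAG). The Hsd17b10 window is chrX:152001646-152001895, plus strand, the Trmt10c window is chr16:56037787-56038036, minus strand, and the Nsun3 window is chr16:62786717-62786966, minus strand.
Hsd17b10: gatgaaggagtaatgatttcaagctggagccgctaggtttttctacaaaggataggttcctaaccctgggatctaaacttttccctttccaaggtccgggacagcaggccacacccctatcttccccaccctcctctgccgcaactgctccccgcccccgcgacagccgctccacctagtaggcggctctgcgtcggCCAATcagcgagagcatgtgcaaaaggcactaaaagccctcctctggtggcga
Trmt10c: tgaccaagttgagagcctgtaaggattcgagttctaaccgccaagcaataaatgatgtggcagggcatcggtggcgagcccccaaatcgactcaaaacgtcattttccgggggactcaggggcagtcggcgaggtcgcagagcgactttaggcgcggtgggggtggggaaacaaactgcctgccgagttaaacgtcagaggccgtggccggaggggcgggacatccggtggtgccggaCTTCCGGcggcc
Nsun3: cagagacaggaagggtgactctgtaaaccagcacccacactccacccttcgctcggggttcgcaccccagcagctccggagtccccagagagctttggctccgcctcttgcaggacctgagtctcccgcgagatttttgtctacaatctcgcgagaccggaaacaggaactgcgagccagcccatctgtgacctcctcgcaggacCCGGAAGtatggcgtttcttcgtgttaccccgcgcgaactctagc
The windows of Hsd17b10 and Trmt10c share none of the motifs searched. Hsd17b10 has a CCAAT box that begins 53 bases before the RefSeq start site, Trmt10c has a GABP core read on the opposite strand that begins 12 bases before it, and Nsun3 has one read in the sense of the gene that begins 45 bases before it. The gene models used for counting begin inside these windows, at chrX:152001845, chr16:56037819 and chr16:62786818. Both GABP cores thus lie within the counted models, and the CCAAT box lies at the edge of its model. Of the 9 members with an entry in the promoter table (Trnt1 was not matched), 3 held the GABP core (Trmt5, Trmt10c and Nsun3) and 4 held a CCAAT box (Gtpbp3, Mto1, Elac2 and Hsd17b10), against 6.91% and 33.8% of all 32851 windows. The palindromic NRF1 motif and the YY1 core (AAGATGG) were in none of the 9, against 3.74% and 4.49% of all windows. A match is a run of letters and not a measured site.

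Library totals ran from 2560219 to 4062321 counts in sperm, 11471251 to 12153141 in morula, 20138842 to 31056066 in round spermatids, 2036237 to 2552454 in liver, 1338149 to 4055537 in eWAT and 369772 to 2749920 in gastrocnemius. The share of counts on mitochondrial genes was 78.1 to 84.3% in HFD sperm and 43.5 to 64.7% in LFD sperm, which leaves few counts for nuclear genes. It was 22.8 to 26.9% in morula, 1.96 to 2.38% in round spermatids, 21.7 to 27% in liver, 15.1 to 18.2% in eWAT and 29.8 to 45.5% in gastrocnemius. Each tissue held every gene of its own marker list: 8 sperm and spermatid genes summed to 8852 to 11382 CPM (counts scaled to 1000000 per library) in round spermatids, 6 morula genes to 758 to 866 in morula, 5 liver genes to 40834 to 61088 in liver, 5 adipocyte genes to 14878 to 28927 in eWAT and 5 muscle genes to 42345 to 87957 in gastrocnemius.

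Hsd17b10, which encodes the short-chain dehydrogenase subunit of mitochondrial RNase P, had the widest range of the 10 members across the F1 tissues, with a median CPM in liver 5.00 times that in gastrocnemius. Among the Nextera tables its median in morula was 12 times that in round spermatids, and there Trmt10c, Trmt5, Pus1 and Trnt1 had wider ranges and Gtpbp3 had a median of 0 in sperm. In round spermatids it had 8 to 18 counts per library, that is 0.285 to 0.894 CPM with a median of 0.622. In morula it had 4.84, 6.29 and 9.05 CPM in the HFD libraries and 7.08, 7.85 and 9.56 CPM in the LFD libraries. All 6 morula libraries were above all 6 round spermatid libraries.

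Liver held the most Hsd17b10 transcript of the F1 tissues. Its level there was 109 CPM at the lowest, 125 at the median and 190 at the highest, against 54.7, 76.1 and 129 in eWAT and 16.6, 25 and 37.9 in gastrocnemius. Liver and gastrocnemius did not overlap, nor did eWAT and gastrocnemius, whereas the highest eWAT library lay within the range of liver. By edgeR's quasi-likelihood test Hsd17b10 was higher in liver than in gastrocnemius by 2.44 ± 0.25 on the log2 scale (SE, n = 6 and 6, adjusted p = 7.63e-09), higher in liver than in eWAT by 1.72 ± 0.23 (adjusted p = 5.16e-07), and higher in eWAT than in gastrocnemius by 0.72 ± 0.24 (adjusted p = 0.0127). These calls and directions held in every setting tried, but with library totals the value was 0.80 for liver over eWAT and 1.68 for eWAT over gastrocnemius. The eWAT libraries also held markers of blood and immune cells, with 3477 to 11481 CPM over 3 erythroid genes and 780 to 1375 CPM over 5 leukocyte genes, against 258 to 500 and 35.6 to 118 CPM in liver and gastrocnemius, and the part of these cells in any eWAT value was not tested. In bulk tissue, fewer cells of a type and less RNA per cell cannot be told apart.

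**Figure D1:**
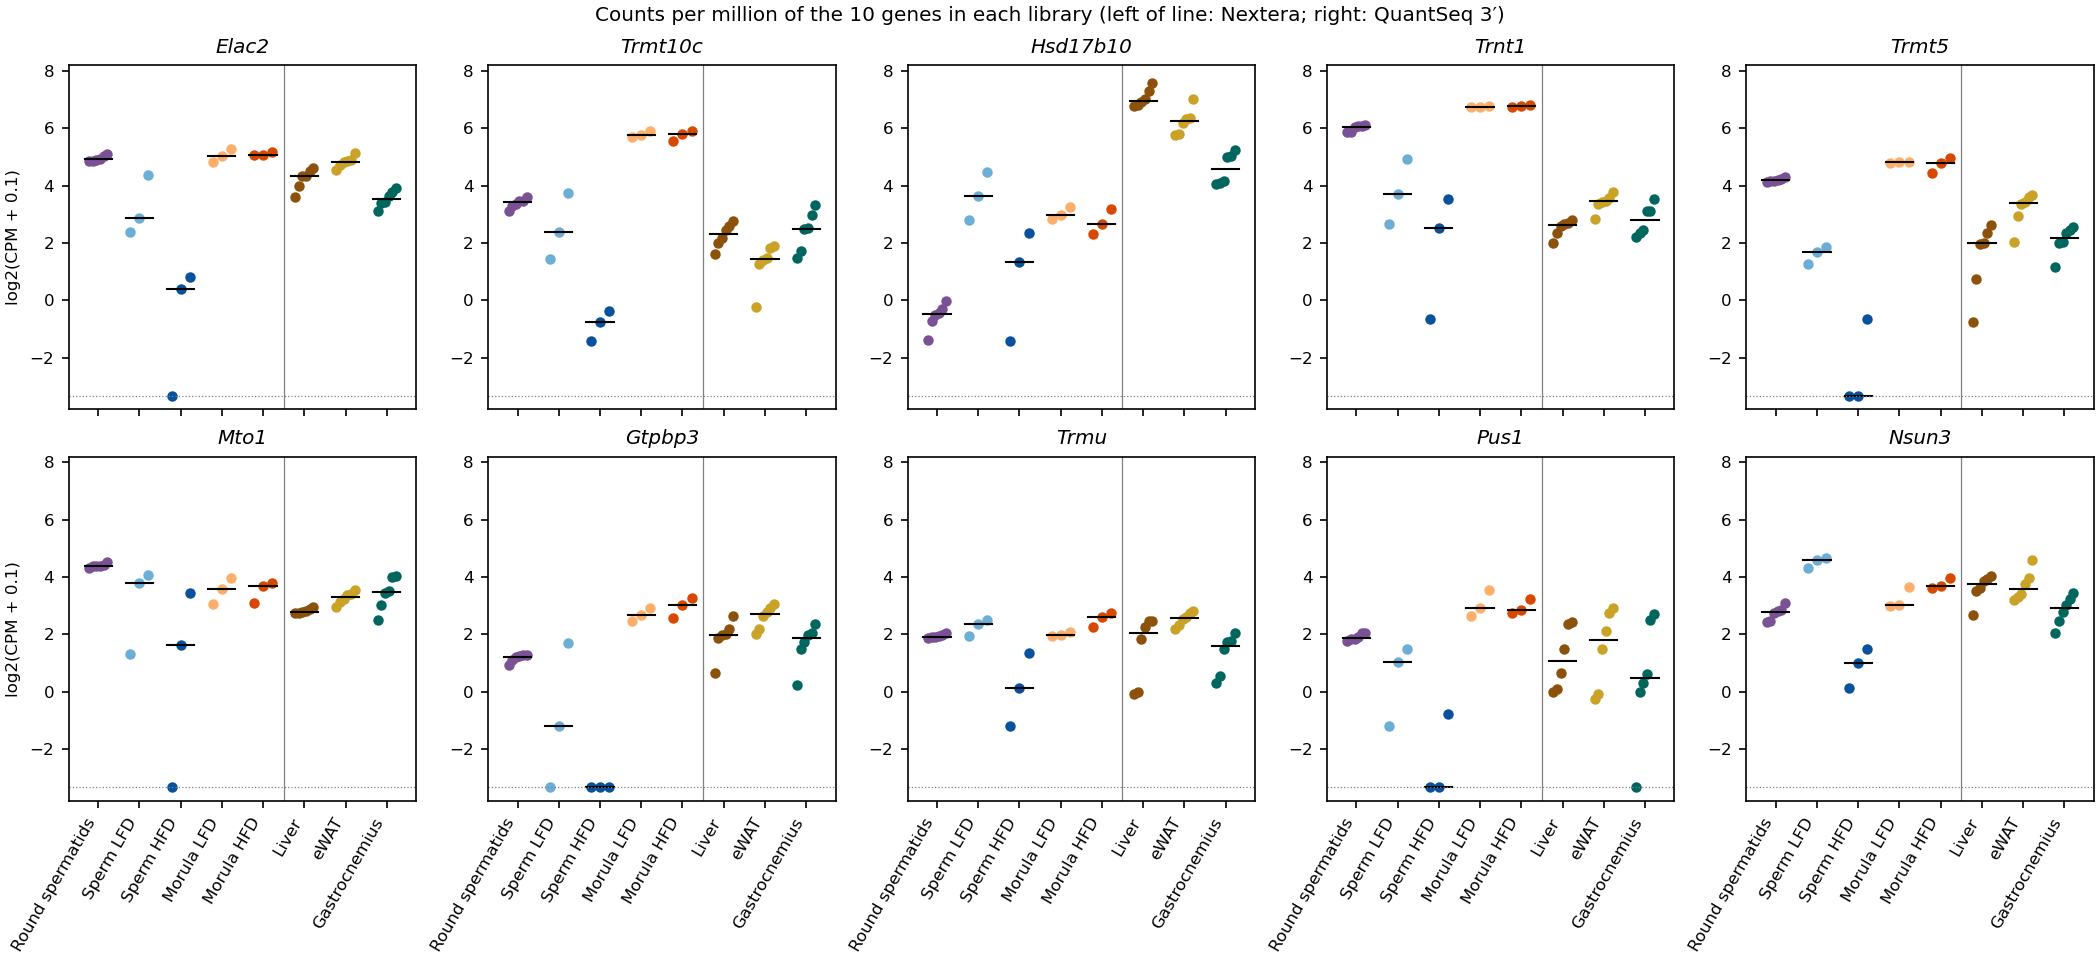
Level of each of the 10 transcripts in every library, as log2(CPM + 0.1), with 1 point per library, a black line at the group median and a dotted line where a count of 0 falls. The vertical line parts the Nextera libraries from the QuantSeq 3′ libraries, whose levels are not comparable with each other. The median of Hsd17b10 is lowest in round spermatids among the Nextera tables and highest in liver among the QuantSeq tables, Trnt1 lies above 100 CPM in every morula library, and counts of 0 occur in sperm for Elac2, Trmt5, Mto1, Gtpbp3 and Pus1 and in gastrocnemius for Pus1.

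Trmt10c, the methyltransferase subunit that works bound to HSD17B10, had another order. Among the Nextera tables it was highest in morula (47.2, 55.1 and 59.9 CPM in HFD, 52.0, 55.0 and 59.3 in LFD) and lower in round spermatids (8.67, 10.6 and 12 CPM at the lowest, the median and the highest). In the F1 tissues its range was 2.98 to 6.74 CPM in liver (median 4.89), 0.747 to 3.63 in eWAT (median 2.61) and 2.70 to 9.92 in gastrocnemius (median 5.54). These rest on 1 to 22 counts per library. Trmt10c was higher in liver than in eWAT by 1.74 ± 0.34 (adjusted p = 0.000104 by edgeR) and lower in eWAT than in gastrocnemius, at -2.15 ± 0.345 (adjusted p = 9.51e-06). With library totals these values were 0.84 and -1.20, both still called. Between liver and gastrocnemius the value was -0.41 ± 0.33 (adjusted p = 0.287).

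The ratio of the partners was therefore compared within libraries, where scaling cancels. The log2 ratio of Hsd17b10 to Trmt10c counts (0.5 added to each) was 4.76 ± 0.47 in liver, 4.88 ± 1.03 in eWAT and 2.07 ± 1.06 in gastrocnemius (SD, n = 6 each). All 6 libraries of liver and all 6 of eWAT were above the highest of gastrocnemius, and the difference was 2.69 for liver and 2.81 for eWAT (exact two-sided permutation test, p = 0.00216, adjusted p = 0.00577 over 8 tests). The value for liver over eWAT was -0.12 (exact p = 0.866). The shallowest eWAT library, with 173 counts of Hsd17b10, 1 count of Trmt10c and a log2 ratio of 6.85, stood above the other 5, which lay between 3.94 and 4.91. The size of that ratio depends on the 1 count and on the 0.5 added. Without it the difference of liver from eWAT was 0.28 and that of eWAT from gastrocnemius 2.41.

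Morula and round spermatids differed in the same ratio. It was -2.90 ± 0.38 in morula and -4.12 ± 0.41 in round spermatids (SD, n = 6 each), a difference of 1.22 (exact p = 0.00433, adjusted p = 0.00866), and 5 of 6 morula libraries were above every round spermatid library. The number itself compares genes of 1298 and 3002 bases and is read only between groups. Per kilobase, Trmt10c exceeded Hsd17b10 in both, at medians of 18.3 against 5.75 CPM per kb in morula and 3.53 against 0.479 in round spermatids. Prorp, the nuclease subunit, was higher in morula than in round spermatids by 1.82 (adjusted p = 3.88e-08), at medians of 26.7 and 10.7 CPM. In the F1 tissues Prorp passed in no comparison, its log2 values being 0.19 for liver over gastrocnemius, 0.59 for liver over eWAT and -0.40 for eWAT over gastrocnemius.

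**Figure D2:**
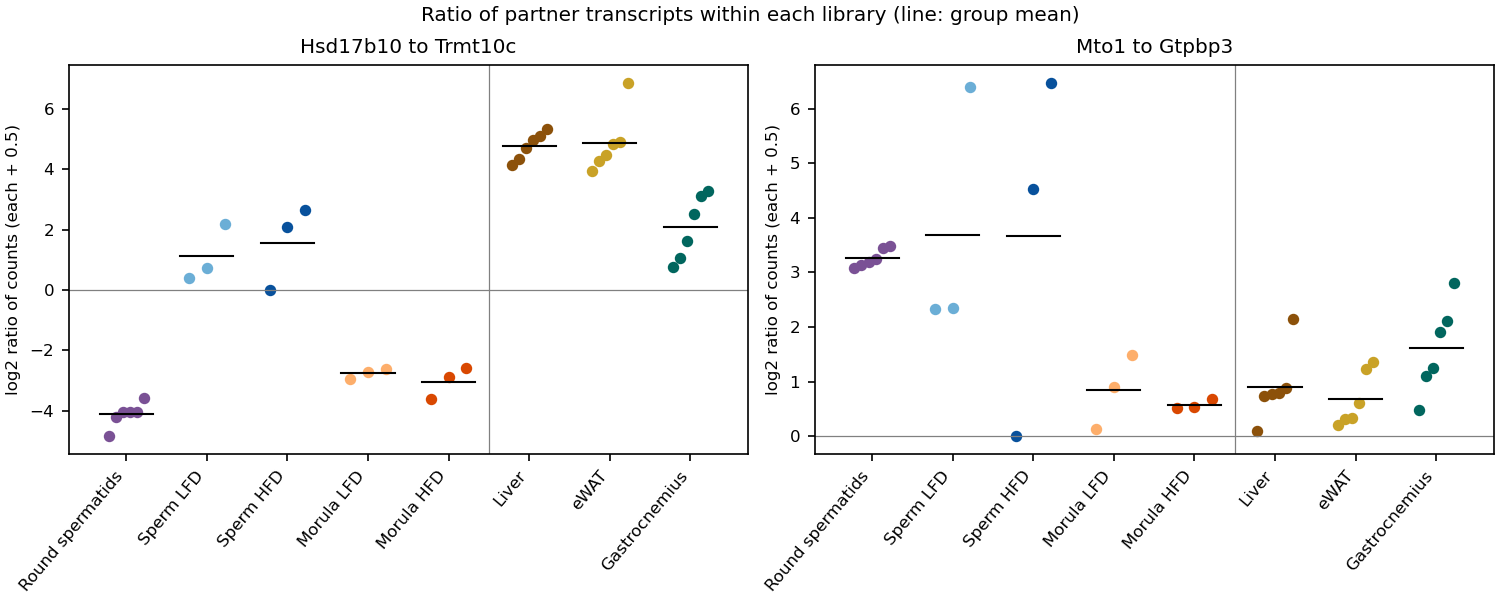
Log2 ratio of counts of Hsd17b10 to Trmt10c (left) and of Mto1 to Gtpbp3 (right) within each library, with 0.5 added to each count, 1 point per library and a line at the group mean. On the left, liver and eWAT lie above gastrocnemius without overlap. On the right, the round spermatid libraries lie between 3.08 and 3.49, above every morula library, and sperm libraries scatter from 0 to 6.48 on few counts.

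In each single comparison of the F1 tissues a minority of the members passed the test with TMM scaling. Liver over gastrocnemius had 3 of 10 members higher, where 34.9% of 10851 genes tested were called higher, and 1 lower, where 31.4% were. Liver over eWAT had 3 members higher (background 28.9%) and none lower (32.6%). In eWAT over gastrocnemius 1 member was higher (41.1%) and 2 were lower (26.3%). With TMM scaling, which sets the libraries so that most genes do not shift, these counts are near or below the background, and the median log2 fold change of the members was 0.08, 0.40 and -0.09, beside 0.06, -0.07 and 0.35 over all genes. With library totals 2 members were higher (background 13%) and 3 lower (64.5%) in liver over eWAT, and 6 higher (67.8%) and 1 lower (11.3%) in eWAT over gastrocnemius. With nuclear genes only, 5 were higher in liver over eWAT (33.1%). The 3 comparisons share libraries.

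Elac2, the 3′ endonuclease, was at 12.1, 20.2 and 24.6 CPM in liver (lowest, median, highest), 23.4, 28.5 and 35.1 in eWAT and 8.55, 11.6 and 14.9 in gastrocnemius. Every eWAT library was above every gastrocnemius library in CPM, yet after TMM scaling the difference was 0.26 ± 0.20 (adjusted p = 0.270 by edgeR), against 1.23 (adjusted p = 7.75e-06) with library totals. Liver exceeded gastrocnemius by 0.61 ± 0.21 (adjusted p = 0.0123). For liver over eWAT the value of Elac2 was 0.36 (adjusted p = 0.102 by edgeR), and it was called higher with nuclear genes only (0.50, adjusted p = 0.0233) and lower with library totals (-0.57, adjusted p = 0.00769). Nsun3, the mt-tRNA-Met cytidine methyltransferase, was at 6.38 to 16.5 CPM in liver (median 13.4), 9.07 to 24 in eWAT (median 11.9) and 4.06 to 10.7 in gastrocnemius (median 7.44), with overlap between each pair. It was higher in liver than in gastrocnemius by 0.82 ± 0.30 (adjusted p = 0.0207) and than in eWAT by 0.79 ± 0.26 (adjusted p = 0.0129), although with plain library totals the latter turned to -0.13 (adjusted p = 0.673), and Nsun3 was then higher in eWAT than in gastrocnemius (0.98, adjusted p = 0.00589).

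Of the wobble uridine enzymes Mto1 alone passed in the F1 tissues with TMM scaling. Mto1 was at 6.58 to 7.64 CPM in liver (median 6.84), 7.72 to 11.6 in eWAT (median 9.81) and 5.55 to 16.2 in gastrocnemius (median 11). It was lower in liver than in gastrocnemius (-0.66 ± 0.25, adjusted p = 0.0252 by edgeR, but 0.0671 by limma-voom and 0.165 without a filter) and lower in eWAT than in gastrocnemius (-1.11 ± 0.24, adjusted p = 0.000357). With library totals the latter was -0.15 (adjusted p = 0.586), and in its place Gtpbp3 (0.76, adjusted p = 0.0482) and Trmu (1.11, adjusted p = 0.0209) passed. Gtpbp3, the GTPase that acts with MTO1, had medians of 3.88 CPM in liver, 6.42 in eWAT and 3.58 in gastrocnemius and passed in none of the 3 comparisons with TMM. Their log2 ratio was 0.90 ± 0.67 in liver, 0.67 ± 0.50 in eWAT and 1.61 ± 0.83 in gastrocnemius (SD, n = 6). It differed by -0.94 between eWAT and gastrocnemius (exact p = 0.0433, adjusted p = 0.0693), by -0.71 between liver and gastrocnemius (adjusted p = 0.179) and by 0.23 between liver and eWAT (adjusted p = 0.606). Trmu, the thiouridylase, had medians of 4.11, 5.86 and 2.95 CPM in liver, eWAT and gastrocnemius, on 1 to 23 counts per library, and likewise passed in none with TMM.

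The other members were low in these tissues. Trnt1, the CCA-adding enzyme, had medians of 6.08 CPM in liver, 10.9 in eWAT and 6.98 in gastrocnemius. Trmt5 was at 3.88, 10.6 and 4.5 and Pus1 at 2.11, 3.49 and 1.29. None of the 3 passed in any comparison of the F1 tissues with TMM scaling, and Pus1 spread from 0 to 10 counts within gastrocnemius. With library totals Trmt5 was lower in liver than in eWAT (-1.42, adjusted p = 0.00197) and higher in eWAT than in gastrocnemius (1.09, adjusted p = 0.0160), and Trnt1 was lower in liver than in eWAT (-0.89, adjusted p = 0.00349).

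**Figure D3:**
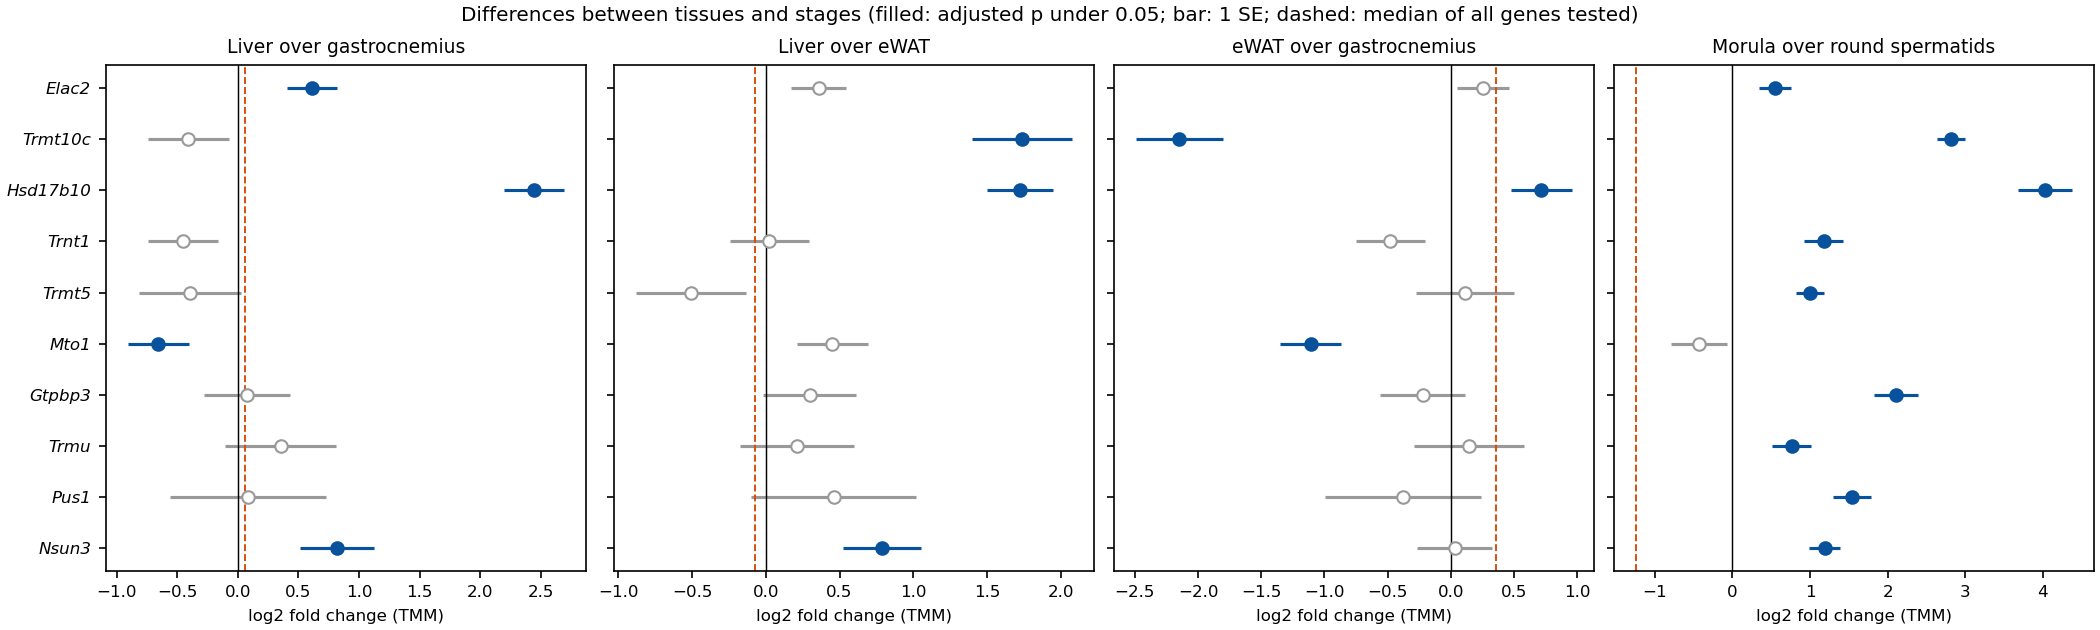
Log2 fold change of each member between tissues or stages (edgeR, TMM scaling; bar, 1 SE). Filled points passed an adjusted p of 0.05, and the dashed line is the median of all genes tested. Hsd17b10 stands at 2.44 in liver over gastrocnemius, Trmt10c at -2.15 in eWAT over gastrocnemius, and in morula over round spermatids all members but Mto1 lie above 0 while the median of all genes is at -1.25.

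Of the 19 further genes, 13 were tested in the F1 tissues. With TMM scaling 4 were higher (background 34.9%) and 3 lower (31.4%) in liver over gastrocnemius. The largest rise was that of Trmt2b, a uridine methyltransferase (2.04, adjusted p = 2.13e-06), and the largest fall that of Qtrt1, the catalytic subunit of the queuine transferase (-1.16, adjusted p = 0.0319). In liver over eWAT 5 were higher (background 28.9%), led again by Trmt2b (1.61, adjusted p = 8e-06). Only Angel2 was lower (-0.52, adjusted p = 0.0099, background 32.6%). In eWAT over gastrocnemius 2 were higher (background 41.1%) and 3 lower (26.3%), with Trit1, the isopentenyl transferase, at 1.42 (adjusted p = 0.000108) and Nfs1, the cysteine desulphurase that supplies sulphur, at -1.16 (adjusted p = 0.000389). Alkbh1 passed in none of the 3 with TMM scaling, at 0.77, 0.12 and 0.65. With library totals 1 of the 13 was higher (background 13%) and 7 were lower (64.5%) in liver over eWAT. In eWAT over gastrocnemius 7 were then higher (67.8%) and none lower (11.3%), so that Nfs1 lost its call.

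Morulae carried more of nearly the whole set than round spermatids did. Of the 10 members 9 were called higher, where 32.9% of 22658 genes tested were, and none lower, where 54.0% were. The members' median log2 fold change was 1.18, beside -1.25 over all genes. Both tables are of Nextera libraries but were made apart, so that stage and table cannot be told apart. All 9 had a positive value under every scaling tried. Elac2 (0.11), Trmu (0.32) and Trnt1 (0.74) lost the call under library totals, and Elac2 (0.24) and Trmu (0.46) also under DESeq2 size factors. Both also lost it without a filter (adjusted p = 0.155 and 0.0593 by edgeR), and Elac2 by limma-voom (adjusted p = 0.0764).

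Hsd17b10 had the largest difference, 4.03 ± 0.35 (adjusted p = 3.42e-09 by edgeR), followed by Trmt10c with 2.82 ± 0.18 (adjusted p = 7.2e-11). Gtpbp3 was higher by 2.11 ± 0.28 (adjusted p = 2.19e-06), with 5.49 to 9.46 CPM over the 6 morula libraries against 1.83 to 2.35 in round spermatids. Pus1, at 6.15 to 11.5 against 3.32 to 4.09 CPM, was higher by 1.54 ± 0.24 (adjusted p = 1.02e-05). Of its exonic bases 30.14% are shared with genes on the other strand in the round spermatid table and 6.33% in the morula table, so that unstranded reads may have been treated differently. Nsun3, at 7.84 to 15.4 against 5.28 to 8.45 CPM, was higher by 1.19 ± 0.20 (adjusted p = 1.57e-05). Its ranges overlap in CPM, and its gene model has 4816 bases in the round spermatid table and 6084 in the others. The part of the shorter model in this value was not tested.

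Trnt1 was the most abundant member per length in both. It stood at 24.6 CPM per kb in morula (24.1 to 25.4) and 15.1 in round spermatids (13.3 to 15.5), ahead of Trmt10c at 18.3 (15.7 to 19.9) in morula and Elac2 at 8.70 (8.33 to 9.92) in round spermatids. In CPM it was 107 to 112 in morula and 58.6 to 68.6 in round spermatids, a log2 difference of 1.18 ± 0.25 (adjusted p = 0.000288 by edgeR). A stretch of 671 bases of a Trnt1 transcript matches Riok3 with 97.2% identity, so that reads from it may have been counted for either gene. Trmt5 was higher in morula by 1.00 ± 0.18 (adjusted p = 5.77e-05), Trmu by 0.76 ± 0.25 (adjusted p = 0.00766) and Elac2 by 0.55 ± 0.20 (adjusted p = 0.0180).

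Mto1 was the exception. It had 8.18 to 15.4 CPM in morula and 19.8 to 22.8 in round spermatids, with no overlap, and the fitted value was -0.43 ± 0.36 (adjusted p = 0.263). Against Gtpbp3 its log2 ratio fell from 3.27 ± 0.17 in round spermatids to 0.71 ± 0.46 in morula (SD, n = 6), a difference of -2.56 with every round spermatid library above every morula library (exact p = 0.00216, adjusted p = 0.00577). That p is the smallest that 6 against 6 libraries can give. Transcripts of Mto1 and Gtpbp3 hold short repeated stretches that recur with at least 90% identity in 276 and 423 other genes, and reads within them may not be assigned with certainty.

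Hsd17b10 was the only X-linked member, and X-linked genes as a whole were placed differently between these tables. Of 797 X-linked genes tested, 45.4% were called higher in morula than in round spermatids, with a median log2 fold change of 0.12, beside 32.9% and -1.25 over all genes. Trmt2b, the only X-linked gene of the 19, was at 2.68 (adjusted p = 5.85e-07). The part of X linkage in the value of Hsd17b10 was not tested. Among the 19 further genes 11 were higher in morula (background 32.9%) and 4 lower (54.0%). Trit1 rose most (3.23, adjusted p = 2.02e-08) and Trmt1, a guanosine methyltransferase, fell most (-1.55, adjusted p = 0.00246). Alkbh1, the dioxygenase downstream of NSUN3, was higher by 2.63 (adjusted p = 1.77e-08), and Nfs1 was lower (-0.68, adjusted p = 0.0248).

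Spermatozoa held few reads of any member. The 6 libraries together had 216 counts of Nsun3, 200 of Trnt1, 147 of Mto1, 141 of Hsd17b10, 100 of Elac2, 62 of Trmt10c, 55 of Trmu, 27 of Trmt5, 16 of Pus1 and 9 of Gtpbp3. Epididymal genes were also present: 7 such genes summed to 1923, 1588 and 2604 CPM in the HFD libraries of 2994295, 3679276 and 4062321 counts, and to 23510, 2476 and 7811 CPM in the LFD libraries of 2560219, 2913166 and 3050543 counts. Lcn9 had no count in either diet. In round spermatids the same 7 genes summed to 2.87 to 5.71 CPM. The study's methods describe treating the swim-up sperm with a lysis buffer and keeping only samples in which no somatic cell was seen under the microscope. The part of epididymal RNA in the sperm values below was not tested. The 8 sperm and spermatid genes summed to 2678 to 5592 CPM in sperm.

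The sperm reads were single-ended and those of round spermatids paired, so that stage and library type cannot be told apart. Against round spermatids, sperm had 3 members called higher (background 23.3%) and 6 called lower (background 49.9%), and the median of the members, -1.17, was close to that of all genes, -1.43. With library totals 1 was higher (12.6%) and 8 were lower (68.3%). Hsd17b10 was higher by 4.72 ± 0.40 (adjusted p = 6.42e-09 by edgeR), with 0.272 to 22.3 CPM in sperm, and stayed higher under library totals (3.25), although the HFD library of 3679276 counts, with 1 count of it, lay below all round spermatid libraries. Of 797 X-linked genes tested 38.9% were called higher in sperm, with a median of -0.70. The part of X linkage in this value of Hsd17b10 was not tested. Nsun3 was higher by 1.52 ± 0.24 (adjusted p = 2e-05) and Trmu by 0.95 ± 0.31 (adjusted p = 0.0116), but with library totals these values were -0.02 and -0.61, and Trmu was then called lower (adjusted p = 0.0484). In CPM every HFD sperm library lay below every round spermatid library for Nsun3 (1.00 to 2.71 against 5.28 to 8.45) and Trmu (0.334 to 2.45 against 3.53 to 4.07). In CPM of nuclear counts the HFD means were 9.27 and 6.09, against 6.81 and 3.83 in round spermatids. The Nsun3 gene model has 4816 bases in round spermatids and 6084 in sperm, and its part was not tested. Without the HFD library of 3679276 counts the value of Trmu was 0.32 (adjusted p = 0.446), and without a filter on low counts it was 0.64 (adjusted p = 0.129 by edgeR). Trmt5 (-3.11 ± 0.34), Elac2 (-1.85 ± 0.28), Trnt1 (-1.30 ± 0.29), Pus1 (-1.25 ± 0.47) and Trmt10c (-1.08 ± 0.29) were lower, with adjusted p from 1.59e-07 to 0.0222. Mto1 was at -0.10 ± 0.40 (adjusted p = 0.838), and was called lower with library totals (-1.56, adjusted p = 0.00515).

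Gtpbp3 is the sixth of the members called lower. No HFD sperm library had a count of it, so that its fitted value has no interpretable size. By summed counts, 9 in sperm against 328 in round spermatids, its ratio was 0.549 (exact 95% interval 0.249 to 1.06, counting error only) after TMM scaling, 0.506 (upper limit 0.972) with DESeq2 size factors, 0.497 (upper limit 0.954) with nuclear genes only and 0.211 (0.0957 to 0.406) with library totals. Of the 19 further genes 3 were higher in sperm (background 23.3%) and 11 lower (49.9%). Trmt2b rose most (3.98, adjusted p = 5.75e-08), and Trmt61b, for which HFD sperm also had no count, had 12 counts in sperm and 835 in round spermatids.

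**Figure D4:**
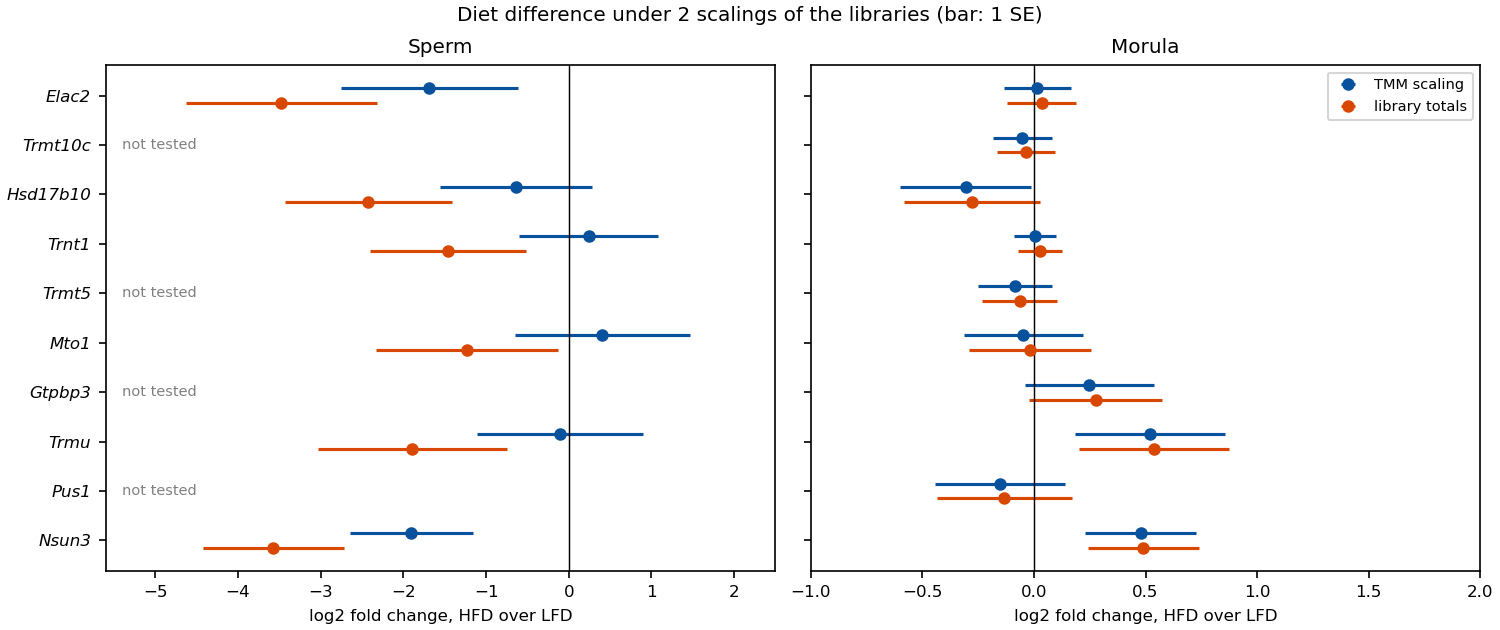
Log2 fold change of each member between HFD and LFD in sperm (left) and morula (right), with TMM scaling in blue and plain library totals in orange (bar, 1 SE; n = 3 and 3). Members without a point in sperm did not pass the filter on low counts. In sperm the values under library totals lie to the left of those under TMM for all 6 tested members, and in morula both scalings give nearly the same value.

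The question of a dietary response of these enzymes was asked in sperm and in morula. In sperm 6 of the 10 members passed the filter on low counts, and none was called. No gene of 8643 was (0%), although 13% (1122 genes) had an unadjusted p under 0.05, as did 1 of the 6 members, Nsun3. Under plain library totals nearly all genes shift, with a median log2 fold change of -1.82 over all genes, and 3266 were called. DESeq2 called 295 genes and no member. The mitochondrial share was higher in every HFD library than in any LFD library, and its part in these values was not tested. Fold changes below are with TMM scaling and levels are CPM of the library total.

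Nsun3 had the lowest p of the members tested in sperm. Its counts were 3, 7 and 11 in the HFD libraries and 64, 58 and 73 in the LFD libraries, that is 1.00, 1.9 and 2.71 CPM against 25, 19.9 and 23.9 CPM. In CPM of nuclear counts alone it had 6.37, 9.07 and 12.4 against 44.2, 54.4 and 67.7. The diets did not overlap on either scale. Nsun3 passed the filter in sperm only through its LFD libraries, which already implied no overlap in CPM. Of all genes that passed, 57.2% had every HFD library below every LFD library in CPM of the library total. The log2 fold change of HFD over LFD was -1.90 ± 0.74 (unadjusted p = 0.0226, adjusted p = 0.299 by edgeR), and the adjusted p was 0.0131 (library totals) to 0.432 over the other settings and 0.244 to 0.808 when each library was left out. In CPM of the library total the LFD libraries stood in the order of their epididymal sums and the HFD libraries did not, and in CPM of nuclear counts neither did. The LFD library with 2476 CPM of epididymal genes had 19.9 CPM of Nsun3 and a mitochondrial share of 63.4%. The HFD library with 2604 CPM of them had 2.71 CPM of Nsun3 and a mitochondrial share of 78.1%. The part of epididymal RNA in the Nsun3 value was not tested. In CPM of nuclear counts the 5 leukocyte genes (255 to 401 in HFD, 169 to 225 in LFD) and the 3 erythroid genes (457 to 1139 against 47.0 to 390) did not overlap between diets and were higher in HFD. On that scale the epididymal sums (7571 to 12215 against 6762 to 41592) and the sperm and spermatid sums (13695 to 26031 against 4738 to 15269) overlapped. In CPM of the library total the leukocyte sums (53.5 to 73.8 against 62.1 to 95.3) and the erythroid sums (95.9 to 179 against 26.6 to 143) overlapped too. The part of any of these cells in the Nsun3 value was not tested.

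Hsd17b10 had 15, 1 and 10 counts in HFD and 57, 20 and 38 in LFD sperm (5.01, 0.272 and 2.46 CPM against 22.3, 6.87 and 12.5). The CPM ranges did not overlap, the LFD libraries but not the HFD libraries stood in the order of their epididymal sums on that scale, those of both diets did in CPM of nuclear counts, and the log2 fold change was -0.64 ± 0.92 (adjusted p = 0.820 by edgeR). Elac2 had 5, 0 and 5 counts in HFD and 53, 15 and 22 in LFD libraries, at -1.69 ± 1.07 (adjusted p = 0.549). In CPM of nuclear counts its libraries also stood in the order of their epididymal sums in both diets. These orders rest on 3 libraries per diet and were not tested. With library totals Nsun3 (-3.57) and Elac2 (-3.47, adjusted p = 0.0280) were called lower. Mto1 had 0, 11 and 44 counts in HFD and 43, 7 and 42 in LFD libraries (0.40 ± 1.06), and Trnt1 17, 2 and 47 against 77, 38 and 19 (0.24 ± 0.84). Trmu had 1, 9 and 4 counts against 13, 11 and 17 (-0.11 ± 1.01). The signs of Mto1, Trnt1 and Trmu turned in at least 1 other setting.

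The other 4 members were below the filter and are given by counts. Trmt10c had 2, 1 and 2 counts in HFD and 34, 15 and 8 in LFD libraries, a ratio of 0.228 after TMM scaling (exact 95% interval 0.0712 to 0.563). Trmt5 had 0, 2 and 0 against 9, 9 and 7 (ratio 0.208, 0.0238 to 0.833). Without the HFD library of 4062321 counts the Trmt5 ratio was 0.398 (0.0456 to 1.59), without that of 2994295 it was 0.278 (0.0320 to 1.12), and the library of 3679276 held both HFD counts. Pus1 had 0, 0 and 2 counts against 7, 1 and 6 (ratio 0.371, 0.0409 to 1.61). Gtpbp3 had no count in HFD and 8, 1 and 0 in LFD libraries. The upper exact limit of its ratio is 1.31 with TMM scaling and 0.402 with library totals. Leaving out each library in turn moved the TMM limit between 0.919 (LFD, 3050543 counts omitted) and 58.8 (LFD, 2560219 counts omitted). Omission of any HFD library raised this limit, to between 1.76 and 2.52. Of the 9 counts 8 were in the LFD library of 2560219. With library totals the ratio was 0.0696 for Trmt10c, 0.0635 for Trmt5 and 0.113 (0.0125 to 0.494) for Pus1. The intervals hold counting error alone, without variation among libraries.

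In CPM of the library total, 6 members (Elac2, Trmt10c, Hsd17b10, Trmt5, Trmu and Nsun3) had every HFD library below every LFD library, beside 57.2% of the genes that passed the filter, so this share is near the background. With TMM scaling 4 did (Elac2, Trmt10c, Trmt5 and Nsun3), beside 12.3%. Trmt10c and Trmt5 are not among the genes behind that percentage. Elac2, Trmu and Nsun3 passed the filter only through their LFD libraries, with at most 1.67, 2.45 and 2.71 CPM in HFD. For these members passing already implied no overlap in CPM, so the lack of overlap adds no support. Of the 19 further genes 10 were tested in sperm and none was called, with a median of -0.68 beside -0.07 over all genes. With library totals 5 of the 10 were called lower, where 3265 of 8643 genes were, with a median of -2.38 beside -1.82. Prorp had 0.272 to 2.34 CPM in HFD and 7.21 to 14.1 in LFD libraries (log2 fold change -1.15), and Alkbh1 1.09 to 5.17 against 4.12 to 36.7 (-1.07). Nfs1 was not tested.

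In morula all 10 members were tested and none was called, as was no gene of 13447 (0%; 6.38% had an unadjusted p under 0.05, and no member). The member values lay between -0.31 and 0.52, with a median of -0.02 beside 0.01 over all genes. Trnt1, with 1222 to 1344 counts per library, was at 0.00 ± 0.09, Trmt10c at -0.05 ± 0.13, Elac2 at 0.01 ± 0.15 and Trmt5 at -0.08 ± 0.17. Trmu had 4.65, 6.54 and 6.01 CPM in HFD and 4.18, 3.79 and 3.87 in LFD morulae, without overlap, at 0.52 ± 0.33 (adjusted p = 0.846 by edgeR). It was the only such member, where 6.60% of genes were higher in every HFD library in CPM and 5.94% with TMM scaling. Nsun3 had 12.7, 15.4 and 12.1 CPM in HFD and 8.11, 7.84 and 12.6 in LFD morulae, with overlap, at 0.48 ± 0.25 (adjusted p = 0.795). None of the 19 further genes was called, nor was any member by DESeq2, which called 18 genes. Alkbh1 was at 0.33 (unadjusted p = 0.0150, adjusted p = 0.696 by edgeR).

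The difference of the diet effect between sperm and morula was tested in a fit of both with round spermatids. Nsun3 was called, at -2.42 ± 0.46 (adjusted p = 0.0120 by edgeR), where 0.984% of 22658 genes were called lower and 0.697% higher. Each diet effect taken alone, -1.90 in sperm and 0.48 in morula, missed the threshold. The joint fit uses 1 estimate of spread for all 3 tables, which gives an SE of 0.46 where sperm alone gave 0.74, while sperm replicates differed more from each other (chi-square per degree of freedom 18.9 to 63) than those of morula and round spermatids (3.5 to 15). The adjusted p of Nsun3 was 5.69e-05 to 0.0232 over the other settings and 0.00595 to 0.0330 when each library was left out. With TMM scaling and all libraries no other member was called. Trmt10c (-2.07 ± 0.59, adjusted p = 0.0772), Elac2 (-1.80 ± 0.59, adjusted p = 0.118) and Trmt5 (-2.22 ± 0.81, adjusted p = 0.161) had values of like size. DESeq2 called Trmt10c and Elac2 (adjusted p = 0.0414 and 0.0121), but it called 1024 of all 22658 genes lower, against 223 in the main fit. Trmt10c was also called by limma-voom (adjusted p = 0.0284), which called 2829 genes higher and 693 lower. By edgeR, Elac2 was called without the LFD sperm library of 2913166 counts (adjusted p = 0.0418), where 636 of 23682 genes were lower. Trmt10c was called without that of 3050543 (0.0240), where 243 of 23610 genes were lower. Trmt5 was called without the HFD sperm library of 3679276 (0.0310), which leaves it no HFD sperm count, so that value has no interpretable size. Trmt10c and Trmt5 did not pass the filter in sperm alone. With library totals 8 of the 10 members were called lower, where 28.0% of all genes were.

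Over the 6 tables, the gene whose centred profile of median log2 CPM lay nearest to that of Hsd17b10 was Tpp1, a lysosomal peptidase (root mean square difference 0.41 log2 units, over 6 tables, among 6793 genes). Leo1, a subunit of the PAF1 complex, lay nearest to Trmt10c (0.27), and Rif1, a replication timing factor, nearest to Trmt5 (0.20). These profiles mix both kits and describe these libraries only.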

How the data were processed

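RNA-seq gene counts of 6 tables were used: sperm, morula and round spermatids (Nextera, which keeps no strand) and liver, eWAT and gastrocnemius (QuantSeq 3′, whose counts do not grow with gene length). The authors trimmed reads with BBDuk, aligned to GRCm38 with STAR and counted genes with featureCounts (versions not given in the sources used here), and deposited whole-number counts without normalization. Nsun3 has a shorter length in the round spermatid table than in the others. The 10 members and all lists were chosen with earlier results of these data known.

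Libraries are named by group and total count. Titles and treatment fields gave the diets. A description field names the other diet for 3 morula samples and was not followed. CPM is the count scaled to a library total of 1000000. edgeR 4.0.16 (R 4.3.3) was used with filterByExpr at a minimum count of 10, TMM scaling and the two-sided quasi-likelihood test, with p adjusted by Benjamini-Hochberg over all genes tested and a threshold of 0.05. SE was taken from the log2 fold change and its F statistic. Sperm and morula were fitted alone for diet, the F1 tissues together, and the Nextera tables together. DESeq2 1.42.0 and limma 3.58.1 (voom) were alternatives, beside other scalings, no filter and leaving out each sperm and morula library. The study's methods give 3 mice per diet for round spermatids. For the other tables no source used here ties libraries to animals, and p-values measure the spread between libraries. Partner ratios were tested by exact permutation over libraries (scipy), and 0.5 was added to each count. Transcripts (GENCODE M21) were searched for copies with BLAST 2.17.0 at 90% identity over 75 bases. Pus1 shares up to 30.14% of its exonic bases with genes on the other strand, Mto1 7.43%, Trnt1 3.26% and Elac2 0.89%. All members are named, and of the 19 further genes the largest called rise and fall in a comparison with Prorp, Alkbh1 and Nfs1. Names came from Ensembl identifiers, Prorp through an older symbol. Scripts were tested on simulated counts.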

Additional observations from a re-analysis of the deposited data

Results flagged for a closer look

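Hsd17b10 in eWAT was at 129 CPM in the library of 1338149 counts, the shallowest of that tissue, while the next highest library was at 81.1 CPM. The gap of this library to the next was 0.646 of the whole range of the 6 libraries, above the limit of Dixon's test. Chance gives about 1 such library in 20 groups, and 40 groups (10 members in 4 tables) were looked at. The same library had 7.47 CPM of 7 epididymal genes, where the other eWAT libraries had 0 to 0.605 CPM. The part of this in the Hsd17b10 value was not tested, and without the library Hsd17b10 was higher in liver than in eWAT by 1.89.

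The effect of diet on Nsun3 differed between sperm and morula by -2.42 on the log2 scale (adjusted p = 0.0120 by edgeR). All 3 HFD sperm libraries were below all 3 LFD sperm libraries. So were those of 57.2% of the genes that passed the sperm filter in CPM of the library total, and of 12.3% with TMM scaling. The joint fit shares 1 estimate of spread with the morula and round spermatid libraries, with an SE of 0.46 where sperm alone gave 0.74. The change in sperm alone was not past the threshold after adjustment.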

How the results depend on the processing

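No paired analysis was possible because the column names carry numbers that are not those of the sample titles. Few nuclear counts in sperm and the shallow gastrocnemius libraries limit precision. The genes called between tissues and stages stayed in total within 1.5 times the main number in every setting tried, but library totals moved their split, from 3138 higher and 3542 lower to 1406 and 6995 in liver over eWAT, from 4465 and 2853 to 7357 and 1227 in eWAT over gastrocnemius, and from 5286 higher to 2862 in sperm over round spermatids. For diet in sperm, library totals gave 3266, no filter 41, DESeq2 295 and an unadjusted p 1122 genes, against 0. For diet in morula, no filter gave 63, DESeq2 18 and an unadjusted p 858, and leaving out libraries gave 0 to 2, the latter without the HFD library of 11776603 counts. For the difference of the diet effect, with 381 genes called, library totals gave 6409, no filter 235, DESeq2 2180, limma-voom 3522, an unadjusted p 3753 and leaving out libraries 199 (without the LFD morula library of 11471251) to 1479 (without the HFD sperm library of 4062321), with 573 to 1069 without the sperm libraries of 2994295 and 3679276 (HFD) and 2913166 (LFD) and 210, 235 and 246 without the morula libraries of 12153141 (HFD), 11864264 and 12133872 (LFD).

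Library totals turned the sign for liver over eWAT of Elac2 (-0.57), Gtpbp3 (-0.63), Mto1 (-0.47), Nsun3 (-0.13), Pus1 (-0.44), Trmu (-0.72) and Trnt1 (-0.89), for eWAT over gastrocnemius of Gtpbp3 (0.76), Pus1 (0.55) and Trnt1 (0.49), for sperm over round spermatids of Nsun3 (-0.022) and Trmu (-0.61), for diet in sperm of Mto1 (-1.23) and Trnt1 (-1.46), and for the difference of the diet effect of Mto1 (-1.17) and Trnt1 (-1.46). The median over all genes then moved to -1.0 in liver over eWAT and 1.32 in eWAT over gastrocnemius. With limma-voom, Mto1 turned to -0.20 in sperm and -0.67 in the difference, Trnt1 to -0.26 in the difference, Trmt5 to -0.063 in eWAT over gastrocnemius and Trmu to -0.050 in liver over eWAT. Without a filter Trnt1 turned to -0.025 in liver over eWAT and -0.0068 in morula, and nuclear genes only turned Nsun3 to -0.094 in eWAT over gastrocnemius. DESeq2 size factors turned Trmu to 0.044 in sperm. Without the shallowest gastrocnemius library Pus1 turned to -0.022 in liver over gastrocnemius, and without the shallowest eWAT library the Hsd17b10 to Trmt10c difference of liver from eWAT turned to 0.28, both chosen after seeing the data. The causes were not tested.

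Leaving out each library gave, for diet in sperm, Mto1 -0.75 to 0.96, Trmu -1.32 to 0.30 and Trnt1 -0.42 to 0.75, and for diet in morula Elac2 -0.088 to 0.12, Mto1 -0.25 to 0.20, Pus1 -0.33 to 0.13, Trmt10c -0.17 to 0.043, Trmt5 -0.18 to 0.052 and Trnt1 -0.015 to 0.021. It gave Mto1 -0.79 to 0.10 in sperm over round spermatids, and -0.78 to 1.01 (Mto1) and -0.56 to 0.68 (Trnt1) in the difference. Of the members called, Elac2 in morula over round spermatids lost the call without the HFD morula library of 11606215 counts, the LFD morula library of 12133872 or the LFD sperm library of 2560219 (0.49, 0.43 and 0.32), and Trmu in sperm over round spermatids without the HFD sperm library of 3679276 or the LFD sperm library of 2560219 (0.32 and 0.69).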
